A study of Mus musculus with 46 samples.

Results

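The step from 4 days (4 d) to 6 days (6 d) after carbon tetrachloride was examined in mouse liver, with the 5 arrays labelled 6 d set against the 5 arrays labelled 4 d, 10 of the 46 arrays of the time course. For each gene the brightest probe set on average was taken among those naming exactly 1 gene, which gave 18193 genes, of which 13239 passed a filter on low values and were tested. All animals were male C57BL/6N mice aged 8 to 10 weeks. The 6 d and 4 d groups had each received 1 intraperitoneal dose of 1.6 g/kg carbon tetrachloride dissolved in olive oil. The untreated livers of the same strain, sex and age (5 arrays) had received neither the solvent nor the oil, so values against them include any effect of injection and of oil. Groups at 2 d and 8 d (5 arrays each, same dose) gave the neighbouring steps. The labels number the arrays but do not tie each to its own animal, so p-values reflect array-to-array spread that may be technical, and the number of arrays limits the precision. The tissue label was borne out by Alb, the hepatocyte gene of serum albumin, which lay between 14.72 and 14.81 at 6 d and between 14.80 and 14.86 at 4 d. For 36 of 73 named genes that were called and had more than 1 probe set, averaging all probe sets changed the log2 fold change by over 1.5 times. That average is given beside them as the probe set mean, and 31 of the 36 kept their call with it, all but Pck1, Pdgfra, Fen1, Sox4 and Ahr. Values are log2 expression values from the arrays, and ± marks limma's standard error of a log2 fold change except where SD is written.

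Carbon tetrachloride kills hepatocytes around the central veins, where cytochrome P450 enzymes turn it into a toxic radical. Neutrophils, infiltrating monocytes and resident Kupffer cells then clear the dead cells, while stellate cells turn into myofibroblasts that lay down collagen and other matrix, and the surviving hepatocytes divide to replace those lost. As the wound closes, macrophages and matrix-producing cells normally decline and hepatocytes regain their zonal enzymes. In bulk tissue, fewer cells of a type and less RNA per cell cannot be told apart.

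At 6 d against 4 d, 966 of the 13239 genes tested were called lower (7.3%) and 465 higher (3.51%) by limma with Benjamini-Hochberg adjustment under 0.05. Of these, 136 lower genes (1.03% of genes tested) and 23 higher genes (0.174%) had changed at least 2-fold. The arrays of the groups did not overlap for 731 of the genes called lower (5.52% of genes tested) and 313 of those called higher (2.36%). The split between lower and higher calls depended on array scaling, with 900 lower and 676 higher after a further quantile normalization. The 465 higher calls numbered 282 without array 5 at 6 d and 293 without array 1 at 4 d.

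Arrays correlated across genes with r from 0.981 to 0.993 within 6 d, from 0.986 to 0.993 within 4 d and from 0.965 to 0.980 between them, where genes are not independent replicates. Of 7 array quality measures 3 differed at an unadjusted p under 0.05 by a two-sided exact permutation test (n = 5 each), the BioB spike-in, at 8.29 at 6 d and 7.96 at 4 d (p = 0.0238), the Cre spike-in, at 13.59 at 6 d and 13.48 at 4 d (p = 0.0476), and the interquartile range of all probe sets, at 2.49 at 6 d and 2.52 at 4 d (p = 0.0476). Their adjusted p was 0.111, but 5 arrays against 5 allow no p below 0.00794, so a single measure that separated the groups fully could not have passed adjustment over 7 (0.0556). Their part in the results was not tested. Array 4 at 6 d stood apart in macrophage, collagen, matricellular, matrix protease and acute phase genes, and arrays 4 and 5 at 6 d stood apart in cholesterol synthesis and pericentral hepatocyte genes, as described beside them. Of the lists meant to mark cells outside the liver lobule, 0 of 5 exocrine pancreas genes and 0 of 6 adipose and mesothelial genes were called by limma, against 0 and 1 at an unadjusted p under 0.05. Their mean difference from untreated livers lay between -0.05 and 0.15 at 6 d and between -0.06 and -0.02 at 4 d for pancreas, and between -0.08 and 0.18 at 6 d and between -0.04 and 0.05 at 4 d for adipose and mesothelial genes. The adipose and mesothelial list includes Krt8 and Car3, which are not particular to those cells, so it is a weak measure of them.

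**Figure D1:**
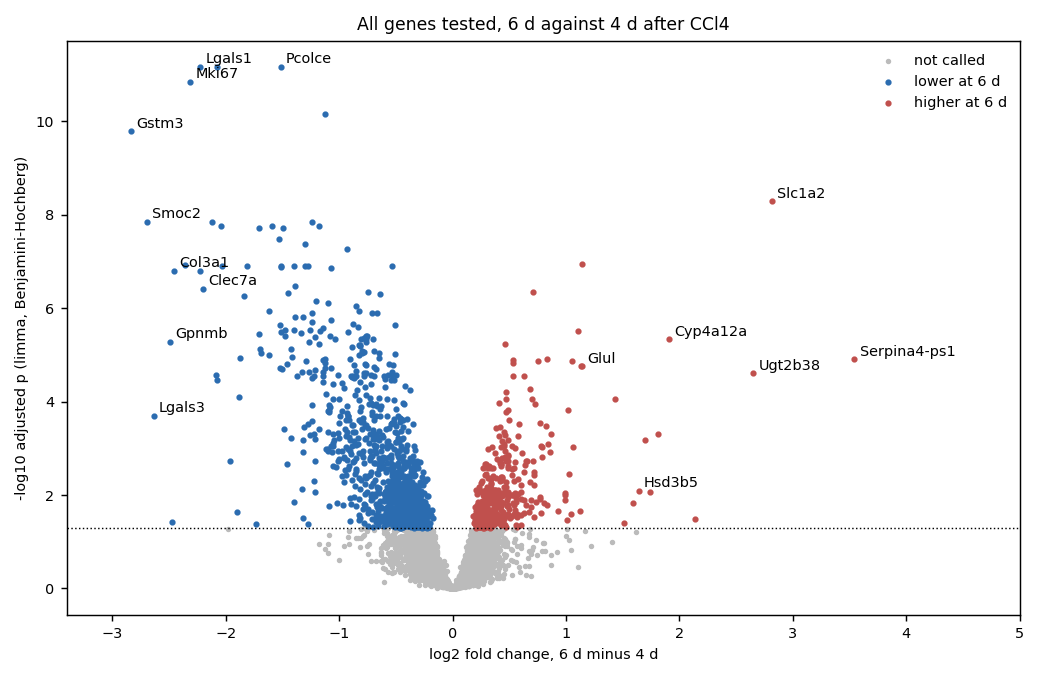
Log2 fold change at 6 d against 4 d (x axis) against -log10 of the limma adjusted p (y axis) for 13239 genes, with genes called lower in blue, called higher in red and not called in grey. The dotted line is the threshold of 0.05, and more genes lie past it on the lower side (966) than on the higher side (465).

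Macrophage transcripts were lower at 6 d. The lists group genes by known role, and their counts are read beside the shares of all genes tested given above. Of 32 pan-macrophage and phagocyte genes tested, 24 fell and 0 rose, with a median log2 fold change of -0.88 beside 0.02 over all genes tested, and 30 of the 32 had a value below 0. The arrays of 19 of these 24 did not overlap. Clec7a, the receptor dectin-1 that recognises fungal glucans, had 7.00, 7.01, 7.03, 8.21 and 7.36 in the 5 arrays at 6 d, against 9.57, 9.63, 9.39, 9.35 and 9.67 at 4 d. All 6 d arrays lay below all 4 d arrays, and 3 of them lay within the range of untreated livers (6.94 to 7.35). Clec7a fell 4.60-fold (log2 fold change -2.20 ± 0.28, adjusted p = 3.91e-07). Cd68, a lysosomal membrane glycoprotein of macrophages, had 5.95, 5.75, 5.70, 6.11 and 5.94 at 6 d, against 7.51, 7.43, 7.12, 7.69 and 7.27 at 4 d. Its groups stood well apart, and it fell 2.85-fold (-1.51 ± 0.18, adjusted p = 1.28e-07). Adgre1, a surface receptor and standard macrophage marker, had 7.71, 7.83, 7.77, 8.48 and 8.17 at 6 d, against 8.66, 9.10, 9.06, 8.60 and 8.87 at 4 d. It fell by less (-0.87 ± 0.14, adjusted p = 1.65e-05), with the highest 6 d array just under the lowest 4 d array.

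Other members that fell cover the working parts of a phagocyte. They include Tyrobp, an adaptor of activating receptors (-1.40 ± 0.20), Mpeg1, a pore-forming protein of phagosomes (-1.39 ± 0.18), Ptprc, the leukocyte phosphatase CD45 (-1.24 ± 0.20, probe set mean -0.71), Csf1r, the receptor for the macrophage growth factor (-1.05 ± 0.18, probe set mean -0.69), and C1qa, a chain of complement C1q (-0.67 ± 0.17). At 4 d against untreated livers 26 of the 32 genes were higher (4.74% of all genes tested were) with a median of 0.99, and at 6 d against untreated livers none was called by limma and 1 was at an unadjusted p under 0.05 (6.9% of all genes tested were). These comparisons share the 4 d or 6 d arrays with the step itself.

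Lyz2, the lysozyme of myeloid cells, showed how array 4 at 6 d differed from the other four. It had 9.06, 8.63, 8.71, 11.00 and 9.12 at 6 d, against 11.44, 11.16, 10.90, 10.92 and 11.55 at 4 d. Array 4 lay within the 4 d range and the other 6 d arrays lay near untreated livers (8.81 to 8.99), so the groups overlapped. Lyz2 fell by 1.89 ± 0.33 on the log2 scale with all arrays (adjusted p = 8.09e-05) and by 2.31 without array 4. Over all pan-macrophage genes measured, the mean difference from untreated livers was -0.06, -0.15, -0.09, 0.63 and 0.16 in the 6 d arrays, against 0.92, 0.98, 0.87, 0.91 and 1.02 in the 4 d arrays. Array 4 was the highest 6 d array also for the monocyte-derived (0.79), lipid-associated (0.22), Kupffer cell (0.30) and neutrophil (0.37) lists. For the monocyte-derived list it lay above every 4 d array (0.42 to 0.75), and for the neutrophil list within the 4 d range (0.33 to 0.53). For the lipid-associated (0.61 to 1.06 at 4 d) and Kupffer cell lists (0.35 to 0.56) it lay below every 4 d array. Without array 4 at 6 d 26 pan-macrophage genes were called lower.

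**Figure D2:**
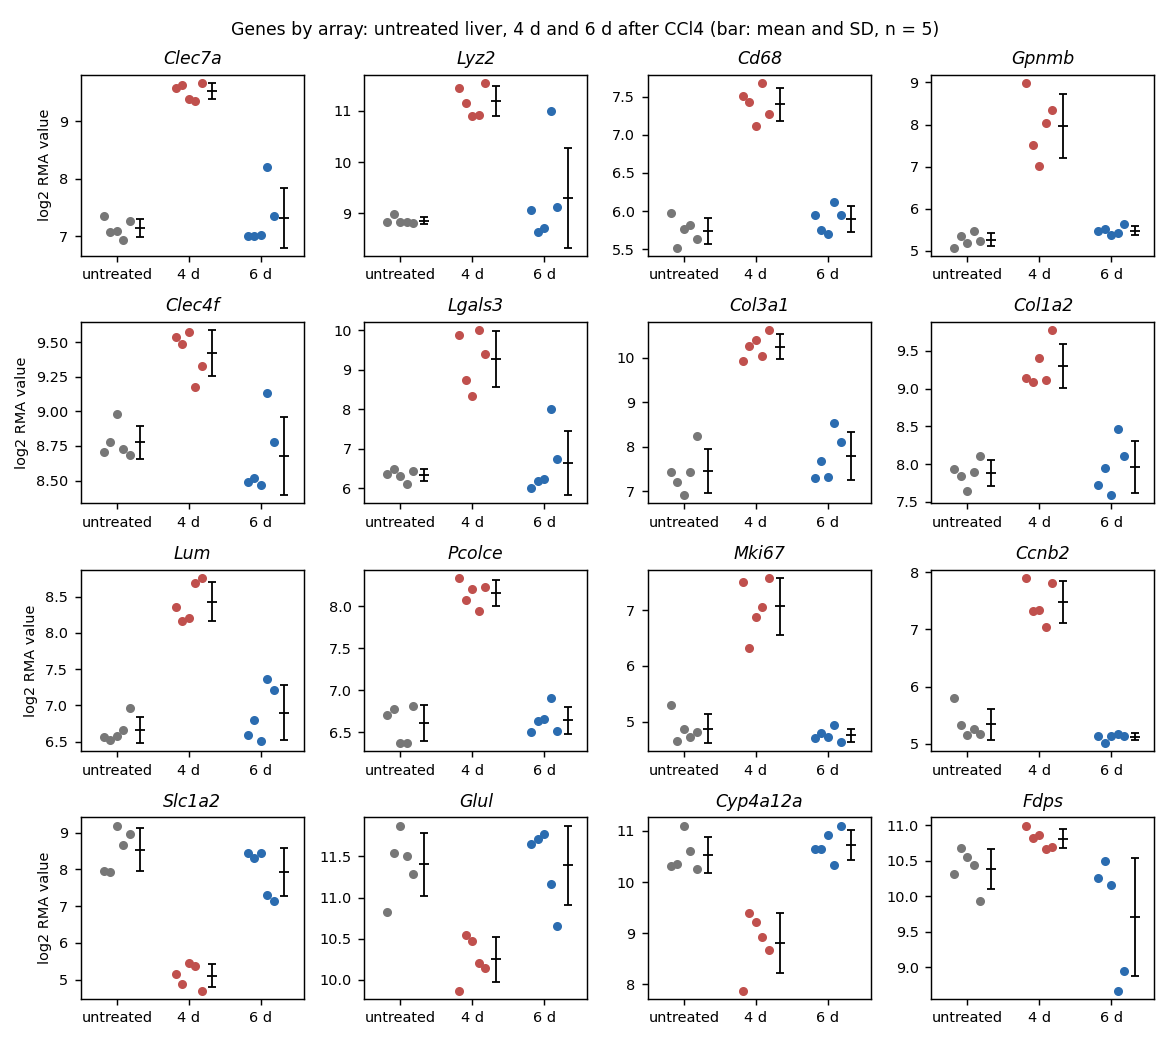
Log2 value of each array (points, in label order) in untreated livers, at 4 d and at 6 d for 16 genes named in the text, each with its own y axis, and the mean and SD of 5 arrays beside them. The macrophage and matrix genes are high at 4 d and mostly back near untreated values at 6 d, with array 4 at 6 d high for Lyz2 (11.00), while Slc1a2, Glul and Cyp4a12a run the other way.

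Genes of macrophages that have taken up lipid and debris were also lower at 6 d. Of 19 lipid-associated macrophage genes tested, 10 fell and 0 rose (median -0.82). Gpnmb, a transmembrane glycoprotein of lysosome-rich macrophages, had 5.47, 5.51, 5.38, 5.42 and 5.63 at 6 d, against 8.99, 7.50, 7.01, 8.03 and 8.34 at 4 d. The 6 d arrays were tightly grouped in the upper part of, or above, the range of untreated livers (5.08 to 5.47), and the fall was 5.63-fold (-2.49 ± 0.37, probe set mean -1.41, adjusted p = 5.32e-06). Lgals3, which encodes galectin-3, had 6.00, 6.19, 6.24, 8.01 and 6.74 at 6 d, against 9.88, 8.74, 8.34, 10.00 and 9.40 at 4 d, a 6.22-fold fall (-2.64 ± 0.49, adjusted p = 0.000204) with array 4 again the highest at 6 d. Lgals1 (galectin-1) fell 4.69-fold (-2.23 ± 0.18), Lpl, lipoprotein lipase, by 1.49 ± 0.29 on the log2 scale, Fabp4, a fatty acid carrier, by 1.09 ± 0.20 (probe set mean -0.56), and Anxa2, a membrane-binding annexin, by 1.05 ± 0.22 (probe set mean -0.56). Several of these, Lgals1 and Anxa2 among them, are also made by mesenchymal and biliary cells. Trem2, the lipid receptor that gives these cells one of their names, was not called on its reported probe set (-0.01 ± 0.08), whereas its other probe set was called lower (-0.40). Cd9, a tetraspanin, was at -0.46 ± 0.23 (adjusted p = 0.201).

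Of 17 monocyte-derived macrophage genes tested, 7 fell and 0 rose (median -0.38), but 3 without array 5 at 6 d, and 9 without array 4. The largest falls were in Plac8, a myeloid protein (-1.27 ± 0.15, adjusted p = 1.28e-07), Cd44, the hyaluronan receptor (-1.25 ± 0.25, probe set mean -0.66), and Sirpa, an inhibitory receptor that restrains phagocytosis (-1.20 ± 0.16, probe set mean -0.55). Ccr2, the chemokine receptor of incoming monocytes, was at 0.03 ± 0.07 on its reported probe set, but the mean of its 4 probe sets was lower at 6 d (-0.32, adjusted p = 0.00103). Of 21 lysosomal protease and lipase genes 9 fell (median -0.30), led by the cathepsin Ctss (-1.41 ± 0.22), the asparaginyl protease legumain, Lgmn (-0.98 ± 0.16), and the cathepsin Ctsc (-0.89 ± 0.22, probe set mean -0.58).

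Part of the resident Kupffer cell list was lower at 6 d. Of 15 genes 5 fell and 0 rose (median -0.32): Cd5l, a secreted protein of tissue macrophages (-1.29 ± 0.20), Vsig4, a complement receptor (-0.87 ± 0.19), Clec4f, a lectin found only on Kupffer cells in mice (-0.74 ± 0.14), Il18bp, the decoy of interleukin-18 (-0.71 ± 0.10), and Folr2, a folate receptor (-0.34 ± 0.11). Folr2 was not called without array 1, 2, 3 or 5 at 6 d or array 2, 4 or 5 at 4 d (adjusted p from 0.066 to 0.176). Clec4f had 8.49, 8.52, 8.46, 9.13 and 8.78 at 6 d, against 9.54, 9.48, 9.57, 9.18 and 9.32 at 4 d. Array 4 at 6 d lay just under array 4 at 4 d, and untreated livers ranged from 8.69 to 8.98. Timd4 (-0.32 ± 0.15), Marco (-0.53 ± 0.39) and Cd163 (-0.50 ± 0.24), which are scavenging receptors of resident macrophages, were not called (adjusted p = 0.184, 0.446 and 0.197).

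Other leukocyte lists held some falls, to be read beside the 7.3% of all genes tested that were lower. Of 12 neutrophil genes 2 fell (16.7%, median -0.06), and neither is particular to neutrophils. They were Lcn2, the iron-scavenging protein lipocalin-2 (-2.47 ± 0.80, adjusted p = 0.0382), which injured hepatocytes also make, and Itgal, an integrin chain shared by most leukocytes (-0.88 ± 0.17, probe set mean -0.51). Lcn2 lost its call without array 1, 3 or 5 at 6 d or array 2, 3, 4 or 5 at 4 d (adjusted p from 0.0575 to 0.0924), though its 6 d arrays (5.42 to 6.70) all lay below its 4 d arrays (7.72 to 9.18). S100a8, a neutrophil calcium-binding protein, was at -1.12 ± 0.49 and not called (adjusted p = 0.145). Without array 4 at 6 d it was called lower by limma (-1.53, adjusted p = 0.0409). Of 11 antigen presentation and dendritic cell genes 4 fell (36.4%, median -0.25), the class II chains H2-Aa (-0.78 ± 0.25), H2-Ab1 (-0.71 ± 0.21, probe set mean -0.45) and H2-Eb1 (-0.47 ± 0.14) and the transcription factor Irf8 (-0.40 ± 0.09). That count was 1 without array 1, 2 or 3 at 6 d or array 5 at 4 d, and 2 without array 5 at 6 d or array 2 at 4 d, and the arrays of none of the 4 genes stood fully apart. Of 20 chemokine and chemokine receptor genes 2 fell (10%, median -0.01), close to the share of all genes tested. They were the myeloid chemokines Ccl6 (-1.27 ± 0.42) and Ccl9 (-0.71 ± 0.19). Ccl6 was at 9.11 in array 4 at 6 d, above every 4 d array (7.74 to 9.06), and lost its call without array 1, 2, 3 or 5 at 6 d or array 1, 4 or 5 at 4 d (adjusted p from 0.0594 to 0.119). Ccl9 lost its call without array 5 at 6 d (adjusted p = 0.0554). Ccl2, the chief monocyte attractant, was at -0.04 ± 0.20.

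Part of each matrix list was lower at 6 d, and none of its members was higher. Of 14 fibrillar and associated collagen genes tested, 5 fell and 0 rose (median -0.22): Col3a1, type III collagen (-2.46 ± 0.30), Col1a2, a chain of type I collagen (-1.34 ± 0.19, probe set mean -0.81), Col6a3 (-0.91 ± 0.14), Col14a1 (-0.77 ± 0.13, probe set mean -0.45) and Col5a2 (-0.73 ± 0.16, probe set mean -0.46). The same 5 were called without any 1 of the 10 arrays. Array 4 at 6 d was the highest 6 d array in the mean difference from untreated livers of this list (0.26, against -0.07 to 0.05 in the other 6 d arrays), and also of the matricellular list (0.14, against 0.00 to 0.05) and the matrix protease list (0.11, against 0.01 to 0.04). Col3a1 had 7.31, 7.68, 7.32, 8.54 and 8.12 at 6 d, against 9.93, 10.28, 10.39, 10.04 and 10.62 at 4 d, a 5.50-fold fall (adjusted p = 1.57e-07). The groups were more than a log2 unit apart, and 4 of the 6 d arrays lay within the range of untreated livers (6.91 to 8.24). Col1a2 had 7.72, 7.94, 7.59, 8.46 and 8.11 at 6 d, against 9.14, 9.08, 9.40, 9.12 and 9.77 at 4 d. Col1a1, the other chain of type I collagen, was at -0.29 ± 0.12 on a dim probe set (5.90 ± 0.15 at 6 d and 6.19 ± 0.05 at 4 d, SD, n = 5 each). Its arrays did not overlap, but it was not called (adjusted p = 0.106).

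Small leucine-rich proteoglycans and other matricellular proteins gave 8 falls and 0 rises among 22 genes, with a median of 0.01 over all 22. The 14 that were not called had a median of 0.05 and ranged from -0.25 to 0.35. Lum, the collagen-binding proteoglycan lumican, had 6.59, 6.80, 6.51, 7.36 and 7.22 at 6 d, against 8.36, 8.16, 8.20, 8.68 and 8.76 at 4 d. It fell 2.90-fold (-1.53 ± 0.17, adjusted p = 3.37e-08) and its groups stood apart. Sparc, a collagen-binding glycoprotein (-0.94 ± 0.17, probe set mean -0.61), Postn, periostin (-0.93 ± 0.17), Dcn, decorin (-0.70 ± 0.14, probe set mean -0.31), and Bgn, biglycan (-0.63 ± 0.11), fell as well. Smoc2, a secreted calcium-binding matrix protein, had the second largest fall among genes whose arrays stood apart. It had 4.94, 5.23, 4.76, 5.21 and 5.13 at 6 d, against 8.82, 6.61, 7.74, 7.31 and 8.24 at 4 d (-2.69 ± 0.29, adjusted p = 1.41e-08). The 4 d arrays spread over more than 2 log2 units, while the 6 d arrays lay within or under the range of untreated livers (5.09 to 5.50). Fn1, fibronectin, which hepatocytes make in quantity, was at 0.01 ± 0.15.

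Enzymes that assemble collagen were lower for 3 of 16 genes (median -0.08). Pcolce, which speeds removal of the procollagen end peptide, had 6.50, 6.64, 6.66, 6.90 and 6.51 at 6 d, against 8.34, 8.07, 8.21, 7.95 and 8.23 at 4 d. It fell 2.86-fold with little spread in either group (-1.52 ± 0.12, adjusted p = 6.84e-12). Serpinh1, the collagen chaperone, fell by 0.49 ± 0.12 (probe set mean -0.86) on the log2 scale, and Crtap, a partner of prolyl hydroxylase, by 0.44 ± 0.13, though Crtap lost its call without array 1 at 4 d (adjusted p = 0.0507). The cross-linking oxidases Lox (-0.09 ± 0.11) and Loxl1 (0.00 ± 0.09) were not called. Of 11 basement membrane genes 3 fell, the linker nidogen, Nid1 (-1.13 ± 0.18, probe set mean -0.43), and both chains of the common type IV collagen, Col4a1 (-0.94 ± 0.18) and Col4a2 (-0.69 ± 0.11).

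Of 23 matrix protease and inhibitor genes 3 fell and 0 rose (median -0.05): Mmp12, the macrophage elastase (-1.32 ± 0.41), Adam8 (-0.46 ± 0.14) and Mmp19 (-0.28 ± 0.09). That count fell to 0 without array 3 at 6 d or array 1 at 4 d, and to 1 without array 1 or 2 at 6 d or array 5 at 4 d. Mmp12 had 4.62, 4.52, 4.39, 5.24 and 4.92 at 6 d, against 6.47, 5.54, 5.30, 6.57 and 6.39 at 4 d. The collagenase Mmp13 (-0.53 ± 0.40), the gelatinase Mmp2 (-0.09 ± 0.09), the membrane-bound Mmp14 (-0.39 ± 0.13, adjusted p = 0.051) and the inhibitor Timp1 (-0.28 ± 0.18) were not called. Without array 4 at 6 d Mmp14 was called lower by limma (-0.48, adjusted p = 0.0182).

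Genes of the cells that make matrix were lower in part. Of 16 myofibroblast contractile genes 4 fell and 0 rose (median -0.23), the intermediate filament vimentin, Vim (-1.87 ± 0.29), which leukocytes also make, the tropomyosin Tpm4 (-0.69 ± 0.15), the actinin Actn1 (-0.49 ± 0.12, probe set mean -0.20) and Tagln2 (-0.38 ± 0.10), which lost its call after a further quantile normalization (adjusted p = 0.0561). Acta2, smooth muscle actin, had 6.75, 6.63, 6.40, 6.40 and 6.57 at 6 d, against 6.94, 6.47, 6.62, 6.90 and 6.94 at 4 d. The groups overlapped each other and untreated livers (6.50 to 6.81), and Acta2 was not called (-0.22 ± 0.19, adjusted p = 0.527). Tagln, transgelin, was at -0.35 ± 0.15 (adjusted p = 0.133) and Des, desmin, at 0.07 ± 0.08.

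Of 16 quiescent stellate cell genes 5 fell, Reln, reelin (-0.83 ± 0.12, probe set mean -0.43), Lrat, which stores retinol as ester (-0.78 ± 0.19), the collectin Colec11 (-0.56 ± 0.15), Rgs5 (-0.52 ± 0.16) and the collectin Colec10 (-0.42 ± 0.13). The count was 3 without array 2 at 6 d or array 2 at 4 d. Of 20 genes of TGF-beta and PDGF signalling 4 fell, the receptors Tgfbr2 (-0.89 ± 0.15, probe set mean -0.31) and Pdgfra (-0.54 ± 0.14), the integrin Itgb5 (-0.54 ± 0.07) and the ligand Pdgfa (-0.37 ± 0.09), while the ligand Tgfb1 was at 0.16 ± 0.09. The mean of all Pdgfra probe sets was not called (-0.14, adjusted p = 0.143). Pdgfrb, the receptor that marks mesenchymal cells, was at 0.07 ± 0.09 on its reported probe set and at -0.53 as the mean of both its probe sets (adjusted p = 0.00326). Of 19 sinusoidal endothelium genes 6 fell (median -0.22), led by Plvap, a protein of endothelial diaphragms (-0.78 ± 0.11), Rspo3, a Wnt enhancer made by central vein endothelium (-0.51 ± 0.12, probe set mean -0.26), and the scavenger receptor Stab1 (-0.45 ± 0.12).

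**Figure D3:**
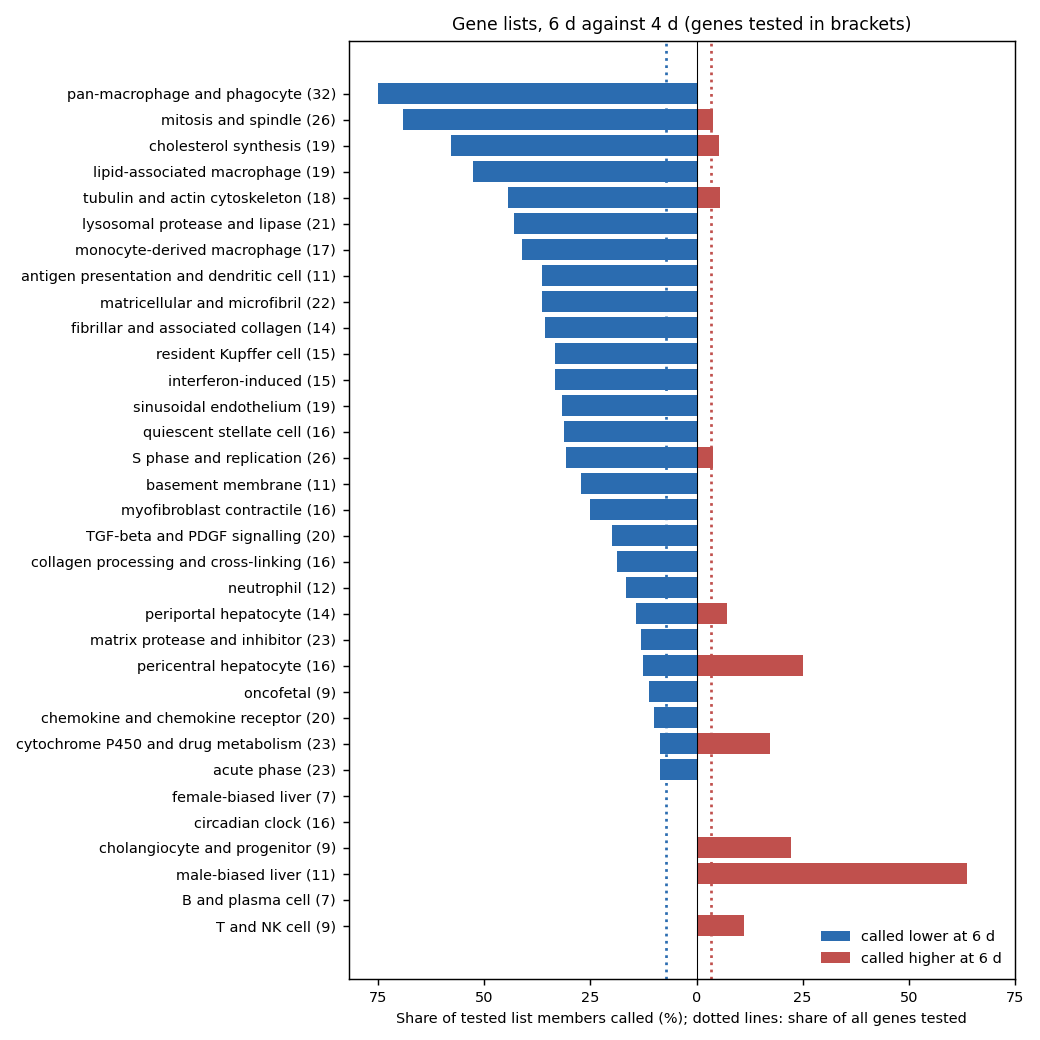
Share of the tested members of each gene list (at least 7 members tested, number in brackets) that were called lower (blue, to the left) or higher (red, to the right) at 6 d against 4 d, in percent, with dotted lines at the shares over all genes tested (7.3% lower, 3.51% higher). The pan-macrophage list had 75.0% of members lower, and the male-biased list had 7 of 11 members higher.

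Cell division genes were lower at 6 d as well. Of 26 mitosis and spindle genes 18 fell, with a median of -0.76, and 1, Cenpf, was called higher. The arrays of all 18 stood apart. Mki67, the proliferation marker Ki-67, had 4.71, 4.79, 4.72, 4.94 and 4.63 at 6 d, against 7.50, 6.32, 6.88, 7.07 and 7.57 at 4 d, a 4.96-fold fall (-2.31 ± 0.19, adjusted p = 1.42e-11). Ccnb2, a mitotic cyclin, had 5.14, 5.01, 5.14, 5.17 and 5.13 at 6 d, against 7.90, 7.32, 7.33, 7.04 and 7.82 at 4 d (-2.36 ± 0.28, adjusted p = 1.22e-07). The 6 d arrays of both genes were nearly level with one another, within or below the range of untreated livers. Birc5, survivin (-2.23 ± 0.27), Ube2c, an enzyme of the anaphase-promoting complex (-1.84 ± 0.24), and Top2a, a topoisomerase (-1.71 ± 0.19, probe set mean -0.55), fell too. Cenpf was at 0.23 ± 0.08 (adjusted p = 0.0464) on its reported probe set, its other probe set was called lower (-1.04), and the mean of both was -0.27 (adjusted p = 0.118). It also lost its call without array 3, 4 or 5 at 6 d or array 1, 3 or 5 at 4 d.

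Promoter windows of some falling mitosis genes are shown because these genes moved together and many share short sequence elements. Only windows that hold both elements described below were chosen for printing. The windows run from 250 bases before to 50 bases after the annotated start in RefSeq (mouse build GRCm38.p6), and 15 of the 18 genes matched 1. Capitals mark the cell cycle homology region (CHR), spelled TTTGAA, and the CCAAT box, each on either strand, where the reverse complements read TTCAAA and ATTGG. The CHR letters were in 11 of the 15 windows (73.3%), against 17.9% of all 32851 mouse windows and 12.4% of the 13554 windows of tested genes. The CCAAT letters were in 11 of the 15 (73.3%), against 37.4% and 36.9%. This share was not particular to mitosis genes, since 8 of 11 windows of falling cholesterol synthesis genes held them (72.7%). A match is a description of the letters, not a bound site. Ccnb2 lies on the minus strand at chr9:70421505-70421804, Mki67 on the minus strand at chr7:135716330-135716629 and Ube2c on the plus strand at chr2:164769679-164769978. In Ube2c 1 CCAAT box overlaps the complement of another.
Ccnb2: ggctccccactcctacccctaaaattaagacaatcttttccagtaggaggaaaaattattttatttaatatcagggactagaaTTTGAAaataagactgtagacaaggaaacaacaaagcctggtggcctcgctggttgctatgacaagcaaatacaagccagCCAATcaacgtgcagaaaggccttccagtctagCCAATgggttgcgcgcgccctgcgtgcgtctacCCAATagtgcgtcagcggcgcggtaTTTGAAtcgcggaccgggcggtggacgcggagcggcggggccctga
Mki67: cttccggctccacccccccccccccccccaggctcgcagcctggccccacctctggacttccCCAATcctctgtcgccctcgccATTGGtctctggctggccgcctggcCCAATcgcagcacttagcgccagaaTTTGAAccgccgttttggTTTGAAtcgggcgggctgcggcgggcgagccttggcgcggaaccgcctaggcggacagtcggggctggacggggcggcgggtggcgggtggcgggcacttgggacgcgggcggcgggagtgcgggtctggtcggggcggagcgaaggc
Ube2c: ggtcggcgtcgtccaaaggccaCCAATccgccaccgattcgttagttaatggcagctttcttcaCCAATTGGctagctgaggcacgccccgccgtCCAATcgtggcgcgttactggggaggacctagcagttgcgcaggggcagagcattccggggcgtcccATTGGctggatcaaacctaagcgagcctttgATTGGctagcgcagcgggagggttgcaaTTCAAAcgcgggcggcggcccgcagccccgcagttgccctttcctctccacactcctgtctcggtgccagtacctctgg

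Of 26 S phase and replication genes 8 fell and 1 rose (median -0.35), but the number lower was 5 without array 3 or 5 at 6 d or array 1 at 4 d. The replicative helicase subunits Mcm5 (-1.69 ± 0.26, probe set mean -0.71) and Mcm6 (-1.14 ± 0.19) and the ribonucleotide reductase subunit Rrm2 (-1.62 ± 0.22) fell. Mcm5 had 4.52, 4.88, 5.04, 4.59 and 4.42 at 6 d, against 7.02, 5.95, 6.10, 6.03 and 6.80 at 4 d. Fen1, a flap endonuclease, was higher on its reported probe set (0.55 ± 0.15, adjusted p = 0.00896), but its mean over both probe sets was -0.02 (adjusted p = 0.954), and it lost its call without array 3 at 6 d (adjusted p = 0.051). Of 18 tubulin and actin cytoskeleton genes 8 fell and 1, Tuba4a, rose (0.48 ± 0.14), though not without array 3 or 5 at 6 d or array 3 or 4 at 4 d (adjusted p from 0.0513 to 0.0615). The number lower was 4 without array 1 at 6 d, array 1 or array 5 at 4 d, and 5 without array 3 or 5 at 6 d. The largest falls were in the microtubule regulator stathmin, Stmn1 (-2.12 ± 0.23), and the actin-binding thymosins Tmsb10 (-1.48 ± 0.21, probe set mean -0.73) and Tmsb4x (-1.17 ± 0.17). Afp, the fetal serum protein alpha-fetoprotein, was the 1 of 9 oncofetal genes that fell (-1.22 ± 0.32, adjusted p = 0.00856), and the lowest of its 5 probe sets was at -4.14.

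The promoter window of Fcgr3, a macrophage receptor for antibodies (-1.22 ± 0.20), is shown because it holds the letters marked below. Most windows of the falling phagocyte genes lacked them. Of the 24 phagocyte genes that fell, 17 matched 21 windows, and the core of the site of the myeloid factor PU.1, spelled GAGGAAG (complement CTTCCTC), was in 6 of them (28.6%), against 13.6% of all windows. Capitals mark it, and the window lies on the minus strand at chr1:171059354-171059653 (GRCm38.p6, RefSeq).
Fcgr3: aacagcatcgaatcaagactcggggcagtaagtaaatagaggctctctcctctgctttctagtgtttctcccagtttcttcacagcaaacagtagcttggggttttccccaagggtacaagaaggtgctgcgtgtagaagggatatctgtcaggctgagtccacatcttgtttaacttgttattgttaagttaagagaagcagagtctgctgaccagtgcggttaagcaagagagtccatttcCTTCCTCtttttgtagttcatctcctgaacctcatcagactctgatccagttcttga

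The step was set beside the steps before and after it, from 2 d to 4 d and from 6 d to 8 d, which last as long. From 2 d to 4 d 2367 genes were lower (17.9%) and 1772 higher (13.4%). From 6 d to 8 d 1 gene (0.00755%) was called by limma (949 at an unadjusted p under 0.05), Lsr, a lipoprotein receptor, which was higher at 8 d by 0.49 and was at -0.64 at 6 d against 4 d (probe set mean -0.32). The difference between the step to 6 d and the step to 4 d was called for 1577 genes (11.9%), lower for 693 (5.23%) and higher for 884 (6.68%). The difference between the step to 6 d and the step to 8 d was called for 483 genes (3.65%), lower for 340 (2.57%). These tests share arrays with the step itself.

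From 2 d to 4 d, 6 of the 32 pan-macrophage genes were called higher and 3 lower, 4 of the 15 Kupffer cell genes higher and 2 lower, 3 of the 14 collagen genes higher and 1 lower, and 2 of the 22 matricellular genes higher and 3 lower, beside 13.4% higher and 17.9% lower over all genes. The difference from the step to 4 d was lower for 16 of the 32 pan-macrophage genes, 6 of the 15 Kupffer cell genes, 5 of the 14 collagen genes and 5 of the 22 matricellular genes, and higher for none of the first 3 lists and 1 of the last. Clec4f had means of 8.62 (2 d), 9.42 (4 d), 8.68 (6 d) and 8.63 (8 d), a rise of 0.80 to 4 d, a fall of 0.74 to 6 d and a difference between these steps of -1.54 ± 0.25 (adjusted p = 5.25e-05). Smoc2 had means of 6.18 (2 d), 7.75 (4 d), 5.05 (6 d) and 5.59 (8 d) (difference between steps -4.26, adjusted p = 2.36e-07). Gpnmb rose by 1.08 to 4 d on the means and fell by 2.49 to 6 d (difference -3.58, adjusted p = 0.000173). Its 2 d arrays were 5.70, 5.89, 5.73, 8.61 and 8.54, with arrays 4 and 5 within the 4 d range (7.01 to 8.99). Smoc2 was split the other way at 2 d, with 6.81, 7.53, 6.30, 4.94 and 5.33. The pan-macrophage mean difference from untreated livers had an SD of 0.52 over the 2 d arrays and 0.06 at 4 d. Differences from the step to 4 d thus rest on means of unlike 2 d arrays for these genes. Pcolce rose by 0.65 and fell by 1.52 (-2.17, adjusted p = 6.27e-09). Col3a1 was at 0.56 to 4 d, which was not called, and at -2.46 to 6 d (difference -3.02, adjusted p = 0.000119).

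Other injury genes were past their peak by 4 d. Cd68 had means of 8.37 (2 d), 7.40 (4 d), 5.89 (6 d) and 5.75 (8 d), falling by 0.96 and then by 1.51, and these falls were not shown to differ (-0.55, adjusted p = 0.287). Mki67 had means of 9.08 (2 d), 7.07 (4 d), 4.76 (6 d) and 4.74 (8 d) (difference between steps -0.30, adjusted p = 0.634). Mmp12 fell by 1.34 and by 1.32 on the means. Its 2 d arrays were 6.79, 6.01, 5.49, 10.03 and 8.65, against 5.30 to 6.57 at 4 d. Only arrays 4 and 5 at 2 d lay far above the 4 d range. Contractile genes fell mainly in the earlier step, with 10 of 16 lower from 2 d to 4 d, and the difference was called as higher for 5. Acta2 had means of 8.72 (2 d), 6.77 (4 d), 6.55 (6 d) and 6.74 (8 d) (difference 1.72, adjusted p = 0.00039). For S phase genes, 24 of 26 were lower from 2 d to 4 d and the difference was called as higher for 15.

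**Figure D4:**
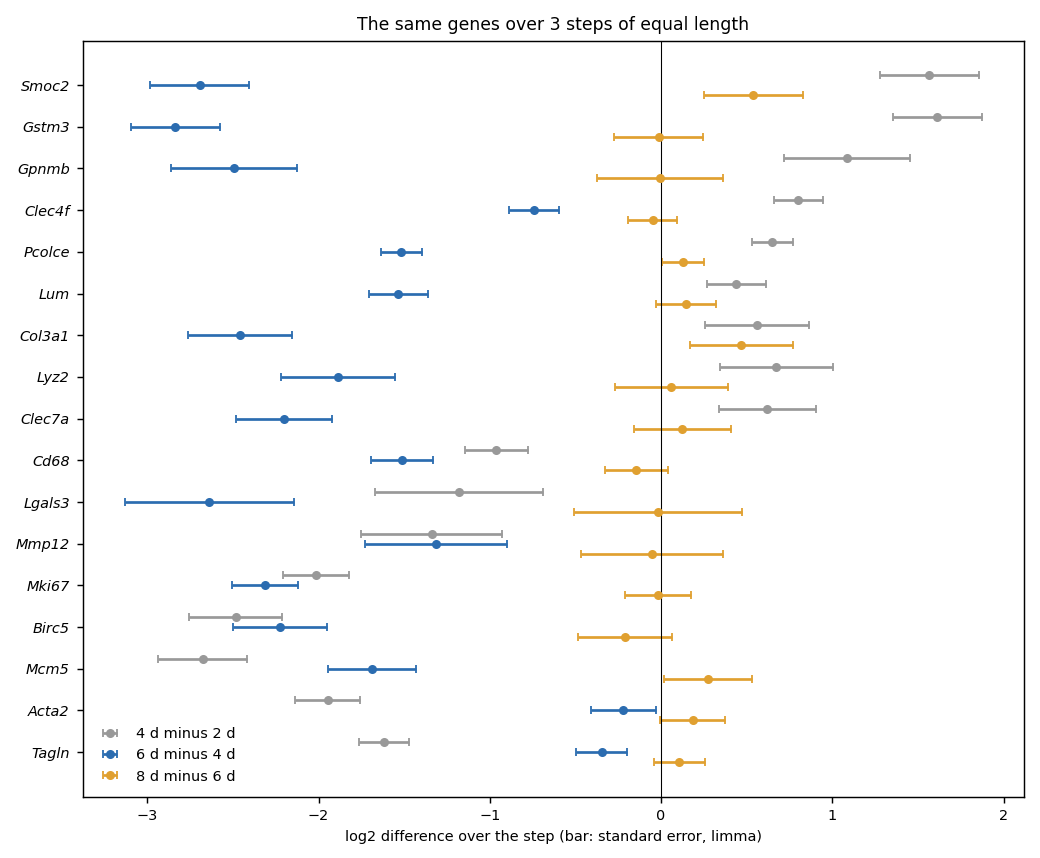
Log2 difference over 3 steps of 2 days each (x axis, with the limma standard error as bars) for 17 genes, with 4 d minus 2 d in grey, 6 d minus 4 d in blue and 8 d minus 6 d in orange. On the means, Smoc2, Gpnmb, Clec4f and Pcolce rose to 4 d before they fell, Mki67 and Cd68 fell over both steps, and Acta2 and Tagln changed mainly in the earlier one. The 2 d arrays of Smoc2, Gpnmb and Mmp12 were split.

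**Figure D5:**
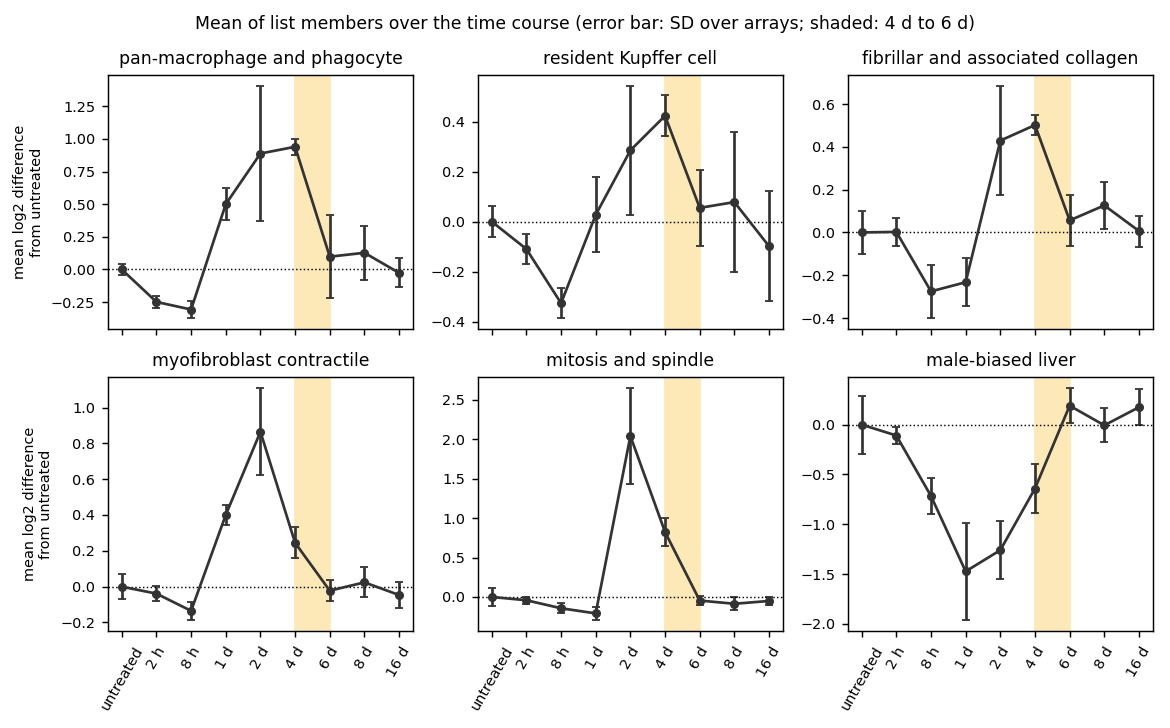
Mean log2 difference from untreated livers over the measured members of 6 gene lists at each time (x axis, times not to scale), with the SD over arrays as error bars and the span from 4 d to 6 d shaded. The pan-macrophage mean was 0.10 at 6 d and 0.94 at 4 d, the collagen mean 0.06 at 6 d and 0.50 at 4 d, and the male-biased mean 0.19 at 6 d and -0.64 at 4 d.

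Hepatocyte genes were among those that rose. Slc1a2, a glutamate transporter of the hepatocytes next to the central vein, had 8.44, 8.30, 8.44, 7.31 and 7.14 at 6 d, against 5.15, 4.88, 5.45, 5.38 and 4.70 at 4 d. All 6 d arrays lay above all 4 d arrays, with arrays 4 and 5 lower than the other three and below the untreated range (7.92 to 9.19). Slc1a2 rose 7.04-fold (2.82 ± 0.29, adjusted p = 5.21e-09), and 0.84 to 3.01 was the range over the alternatives run, the lowest being the mean of its probe sets. Of 16 pericentral hepatocyte genes 4 rose and 2 fell (median 0.06). Glul, the glutamine synthetase of the same cells, had 11.66, 11.71, 11.78, 11.17 and 10.65 at 6 d, against 9.87, 10.54, 10.48, 10.20 and 10.15 at 4 d (1.14 ± 0.18, adjusted p = 1.77e-05). The mean difference of the list from untreated livers was 0.00, 0.06, 0.05, -0.32 and -0.39 in the 5 arrays at 6 d. Arrays 4 and 5 at 6 d were again the lowest and lay within the 4 d range (-0.46 to -0.19), while arrays 1, 2 and 3 lay above it. Oat, ornithine aminotransferase, had 12.00, 11.67, 11.74, 10.52 and 10.68 at 6 d, against 9.53, 9.96, 10.50, 9.99 and 9.48 at 4 d. Oat rose by 1.43 ± 0.25, and Cyp27a1, a sterol hydroxylase, by 0.42 ± 0.10 (probe set mean 0.25), while Ahr, the dioxin receptor (-0.83 ± 0.25, probe set mean -0.42), and Lect2, a secreted chemotactic protein (-0.66 ± 0.16), fell. Ahr lost its call without array 4 or 5 at 6 d or array 2 or 3 at 4 d (adjusted p from 0.0516 to 0.106). Cyp2e1, the enzyme that activates the solvent, was at 0.36 ± 0.27 and not called (adjusted p = 0.444).

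Genes expressed more strongly in male than in female liver were higher at 6 d, with 7 of 11 called higher and 0 lower (median 0.49). Cyp4a12a, a fatty acid hydroxylase, had 10.64, 10.65, 10.91, 10.32 and 11.09 at 6 d, against 7.88, 9.39, 9.21, 8.92 and 8.66 at 4 d, a 3.75-fold rise (1.91 ± 0.28, adjusted p = 4.68e-06). Hsd3b5, a steroid dehydrogenase, had 11.85, 11.88, 12.04, 10.89 and 11.33 at 6 d, against 9.58, 10.89, 10.29, 9.08 and 9.95 at 4 d (1.64 ± 0.42, adjusted p = 0.00806), with the lowest 6 d array just above the highest 4 d array. Slco1a1, an organic anion carrier, rose by 1.14 ± 0.18, and Elovl3, a fatty acid elongase, by 2.14 ± 0.67 (adjusted p = 0.0321). Elovl3 lost its call without array 3 or 5 at 6 d or array 1, 4 or 5 at 4 d (adjusted p from 0.0669 to 0.126). At 4 d against untreated livers 6 of these 11 genes were lower (2.21% of all genes tested were). Of 7 genes expressed more strongly in female liver none was called by limma and none had an unadjusted p under 0.05.

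The largest rise was in Serpina4-ps1, a serpin pseudogene, with 10.19, 9.43, 11.48, 10.84 and 10.96 at 6 d, against 7.37, 7.73, 6.58, 5.73 and 7.78 at 4 d (11.6-fold, 3.54 ± 0.55, adjusted p = 1.24e-05). The glucuronosyltransferases Ugt2b38 (2.65 ± 0.43) and Ugt2b1 (1.05 ± 0.16), Cyp7b1, an oxysterol hydroxylase (1.69 ± 0.35), Slc25a30, a mitochondrial carrier (1.81 ± 0.36, probe set mean 1.19), and Alas1, the limiting enzyme of heme synthesis (1.74 ± 0.46), also rose. Of 23 cytochrome P450 and drug metabolism genes 4 rose and 2 fell (median 0.15). Cyp2d10 (0.46 ± 0.07) and Cyp2j5 (0.38 ± 0.11) were the other rises and the glutathione S-transferase Gstm1 (-1.15 ± 0.16) and the carboxylesterase Ces1g (-0.78 ± 0.22) the falls. Cyp2j5 lost its call without array 1 at 4 d (adjusted p = 0.0695). Gstm3, another glutathione S-transferase, had 9.37, 9.81, 10.01, 9.01 and 8.78 at 6 d, against 12.51, 11.90, 11.92, 12.69 and 12.14 at 4 d, the largest fall named (7.14-fold, -2.84 ± 0.26, adjusted p = 1.65e-10). The reported probe set of Gstm3 also matches related transcripts, so the member of the family is uncertain on it. Another probe set of Gstm3 was at -2.22 ± 0.19.

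Of 14 periportal hepatocyte genes 1 rose and 2 fell. Pck1, the rate-limiting enzyme of gluconeogenesis, had 11.82, 11.87, 11.84, 11.97 and 12.36 at 6 d, against 8.48, 11.07, 10.54, 11.68 and 10.53 at 4 d (1.51 ± 0.49, probe set mean 0.98, adjusted p = 0.0397). Array 1 at 4 d was far below the others, and without it the difference was 1.01. Pck1 lost its call without that array, without any 1 of the 5 arrays at 6 d, or without array 3 or 5 at 4 d (adjusted p from 0.0568 to 0.215). Aldh1b1, a mitochondrial aldehyde dehydrogenase, fell by 2.08 ± 0.34 on the log2 scale, beside Ctsc.

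Cholesterol synthesis genes were lower at 6 d, with 11 of 19 called lower and 1, Tm7sf2, higher (0.37 ± 0.08), and a median of -0.53. Fdps, which makes farnesyl diphosphate, had 10.26, 10.50, 10.16, 8.68 and 8.96 at 6 d, against 10.99, 10.82, 10.87, 10.67 and 10.69 at 4 d (-1.10 ± 0.24, probe set mean -0.56, adjusted p = 0.00115). Arrays 4 and 5 at 6 d were more than a log2 unit below the other three, and the mean of the list stood at -0.04, 0.07 and -0.09 from untreated livers in arrays 1, 2 and 3 at 6 d and at -0.95 or lower in arrays 4 and 5. Dhcr7, the last reductase of the pathway (-1.06 ± 0.23), and Hmgcs1, the synthase at its entry (-1.02 ± 0.29), fell. Without array 4 at 6 d 7 genes of the list were lower, and Hmgcs1 lost its call without array 4 or 5 at 6 d (adjusted p = 0.0653 and 0.0856).

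Interferon-induced genes were lower for 5 of 15 (33.3%, beside 7.3% of all genes tested; median -0.13), and 4 or 5 were called with any 1 array left out. They were Ifi27l2a (-1.48 ± 0.21), Ifit2 (-1.14 ± 0.18), Gbp3 (-0.73 ± 0.16), Gbp2 (-0.64 ± 0.21) and Oas1a (-0.45 ± 0.10). Of the 15, 1 passed the filter only through the 4 d arrays. Ifit2 may be this gene. Its 4 d arrays (5.75 to 6.21) all lay above the filter value of 5.56. Its arrays at 6 d (4.71 to 5.06), at 8 d (4.67 to 5.27) and in untreated livers (4.73 to 5.02) all lay below it. At 2 d Ifit2 ranged from 5.06 to 5.64. A gene that passes in this way is selected for being high at 4 d, which favours a fall. The 33.3% still counts the gene that passed in this way, so that share depends in part on the filter. Gbp2 lost its call without array 1, 2, 3 or 5 at 6 d or array 2 or 3 at 4 d (adjusted p from 0.0645 to 0.134). Of 23 acute phase genes 2 fell, Lcn2 and Apcs, serum amyloid P (-0.94 ± 0.22), and the mean of the list was highest in array 4 at 6 d (0.53, against -0.18 to 0.11 in the other 6 d arrays). Of 9 T and NK cell genes 1 rose, the cytotoxic pore protein Prf1 (0.30 ± 0.08), which was not called over the mean of its probe sets (0.22, adjusted p = 0.0906), and Cd3e, a chain of the T cell receptor complex, was at -0.04 ± 0.08. Of 9 cholangiocyte and progenitor genes 2 were called higher, Sox4 (0.28 ± 0.07) and Itgb4 (0.23 ± 0.08), but Sox4 was at -0.11 over the mean of its probe sets, and Itgb4 lost its call without array 1, 2 or 3 at 6 d or array 1, 2, 3 or 4 at 4 d (adjusted p from 0.0526 to 0.158). Of 3 erythroid genes Alas2, heme synthesis in red cells, was called higher (0.47 ± 0.16), but not without array 1, 2, 3 or 5 at 6 d or array 1 or 5 at 4 d (adjusted p from 0.0694 to 0.194). None of 7 B and plasma cell genes and none of 16 circadian clock genes was called by limma, against 2 and 2 at an unadjusted p under 0.05.

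At 6 d few differences from untreated livers remained in the limma fit. Against untreated livers 3 genes were called at 6 d (0.0227%), all higher, with 914 at an unadjusted p under 0.05, and 920 at 4 d (6.95%; 628 higher and 292 lower). The 3 were Ceacam1, a cell adhesion receptor (0.70), Scaf11, a splicing factor (0.40), and Zbtb7a, a transcriptional repressor (0.71), and they were at 0.58, 0.27 and 0.70 at 4 d. A gene that was not called at 6 d is not thereby shown to be at its untreated level.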

How the data were processed

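Total RNA from liver was copied from oligo-dT primers into cDNA and labelled as biotinylated cRNA for Affymetrix Mouse Genome arrays, per the labels' protocols. The authors deposited log2 values per probe set. Their tools were oligo 1.52.0 with RMA, according to the submitters' processing notes. Because RMA includes quantile normalization, it takes out shifts that most genes share. Scan dates and batches are not given in the sources used here.

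Of 45101 probe sets 34945 named 1 gene, 932 named several and 9160 none, and 64 were controls. Symbols were updated through Entrez IDs for 34741. The low-value filter asked for a value above 5.56, the median of the whole table, on 5 or more arrays, and 13239 of 18193 genes passed. All 46 arrays entered 1 limma fit of group means (limma 3.58.1, R 4.3.3, lmFit and eBayes, 37 residual degrees of freedom). P-values were adjusted by Benjamini-Hochberg over all genes tested, with calls made under 0.05. The median standard error for 6 d against 4 d was 0.0966.

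The 36 gene lists (714 genes, 643 measured) and the members were chosen with earlier results of these data known, and lists are described by counts and medians without a list test. Named genes are the 10 largest falls and 10 largest rises among called genes whose arrays did not overlap (without clone names), from each list with at least 3 calls the 3 that changed most, and a panel of 43 genes, 2 of which were not used. Chosen for naming after their values were seen were Acaca, Acly, Ahr, Alas2, Anxa2, Apcs, Bgn, Ccl6, Ccl9, Ceacam1, Cenpf, Ces1g, Col14a1, Col5a2, Colec10, Csf1r, Cyp27a1, Cyp2d10, Cyp2j5, Dcn, Elovl6, Fabp4, Fasn, Fcgr3, Fen1, Folr2, Gbp2, Gstm2, Gstt3, Il18bp, Irf8, Itgal, Itgb4, Lect2, Lpl, Lsr, Mpeg1, Oas1a, Pdgfa, Prf1, Ptprc, Rgs5, Scaf11, Slco1a1, Sox4, Tagln2, Tm7sf2, Top2a, Tuba4a, Tyrobp, Ube2c, Zbtb7a.

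The fit was tested on simulated data for 6 d against 4 d with 200 of 13239 genes changed, and recovered 82.1% of genes changed 1.5-fold, 98.5% at 2-fold and 100% at 4-fold, with 4.1% of calls unchanged genes. The simulated noise was normal and independent between genes, while some real arrays stood apart in many genes together. These rates therefore check the code and need not hold for the real comparison. Array quality was compared by two-sided exact permutation tests. Alternatives were array scalings, filters, probe set rules, arrays in the fit, variance models, array weights, a fold threshold, a replicate block and each of the 10 arrays left out. Testing each probe set on its own was added after seeing the data. Promoter letters came from RefSeq windows (GRCm38.p6). Python 3.11.15 with pandas 2.3.3, scipy 1.17.1 and matplotlib 3.10.9 was used.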

Additional observations from a re-analysis of the deposited data

Results flagged for a closer look

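Of 314 groups of 5 arrays (the genes named in the text at 6 d and at 4 d) 27 held an array whose gap to its nearest neighbour was over 0.71 of the group's range. Chance flags about 1 in 20 groups. Array 2 at 6 d was the lowest and apart for Ccnb2 (5.01, nearest other array 5.13). Array 3 at 6 d was the lowest and apart for Reln (8.07, nearest other array 8.44). Array 4 at 6 d was the highest of its group and apart for Lyz2 (11.00, nearest other array 9.12), Mcm6 (6.02, nearest other array 5.89), Tmsb10 (9.43, nearest other array 8.71), Fn1 (12.35, nearest other array 11.97), Cenpf (6.43, nearest other array 6.21), Ccl6 (9.11, nearest other array 6.89), Anxa2 (8.31, nearest other array 7.37) and Mpeg1 (9.15, nearest other array 8.64), and the lowest and apart for Plvap (7.33, nearest other array 7.51), Prf1 (5.42, nearest other array 5.57) and Sox4 (6.63, nearest other array 6.76). Array 5 at 6 d was the highest of its group and apart for Pck1 (12.36, nearest other array 11.97), and the lowest and apart for Gbp3 (5.78, nearest other array 6.14) and Ccl9 (9.03, nearest other array 9.61). Array 1 at 4 d was the highest of its group and apart for Fasn (11.51, nearest other array 10.40) and Elovl6 (11.10, nearest other array 9.96), and the lowest and apart for Plac8 (8.55, nearest other array 8.81), Cyp27a1 (10.60, nearest other array 10.79) and Cyp2j5 (10.46, nearest other array 10.71). Array 3 at 4 d was the lowest and apart for Zbtb7a (5.54, nearest other array 5.80). Array 4 at 4 d was the highest of its group and apart for Des (7.35, nearest other array 7.10), and the lowest and apart for Slc25a30 (6.94, nearest other array 7.66). Array 5 at 4 d was the highest of its group and apart for Sparc (10.02, nearest other array 9.67), and the lowest and apart for Ccr2 (6.76, nearest other array 6.96) and Loxl1 (5.49, nearest other array 5.76). The genes at 6 d that set array 4 apart on the high side included myeloid genes (Lyz2, Ccl6 and Mpeg1), and it also had the highest mean of the pan-macrophage list (0.63 from untreated livers, against -0.15 to 0.16 in the other 6 d arrays). What this array's position does to other results was measured only by leaving it out.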

How the results depend on the processing

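Of 130 named genes called at 6 d against 4 d, 102 kept their call and direction under each of the 20 alternatives in which they were tested and 28 lost the call or turned under at least 1. Leaving out 1 array gave 1006 to 1370 genes called (724 to 963 lower, 282 to 422 higher), 22 to 26 pan-macrophage, 3 to 9 monocyte-derived, 9 to 11 lipid-associated, 4 to 5 Kupffer cell, 5 collagen, 8 matricellular, 5 to 8 S phase, 15 to 19 mitosis and 7 to 12 cholesterol synthesis genes lower, and 6 to 7 male-biased genes higher. The higher calls numbered 282 without array 5 at 6 d and 293 without array 1 at 4 d. Array weights gave 2701 calls, 1649 lower and 1052 higher. A fit of the 10 arrays alone gave 698 higher calls and 14 S phase genes lower. In that fit H2-Aa, H2-Eb1, Cenpf, Itgb4, Ccl6, Folr2 and Gbp2 lost their calls (adjusted p from 0.0612 to 0.0952 by limma). Asking also for at least 2-fold left 159 genes. The cause of these shifts was not tested, except that the fold threshold removes genes by construction. Arrays of equal number at 6 d and 4 d showed little likeness over all genes. Correlations of their deviations from group means lay between -0.14 and 0.02, and not every array correlated best with its own number. That check cannot show whether arrays 1 to 3 differed as a set from arrays 4 and 5. Cholesterol synthesis means from untreated livers divided that way at 6 d and, by less, at 4 d (0.38, 0.23, 0.20, 0.04 and 0.01). Pan-macrophage means did not at 4 d (0.92, 0.98, 0.87, 0.91 and 1.02). A shared batch was not tested. A fit of the 10 arrays with the replicate block gave 1130 lower and 471 higher calls. The same 10 arrays without the block gave 1342 lower and 698 higher calls. With the mean of all probe sets of a gene the direction turned for Ccr2 (-0.32), Pdgfrb (-0.53), Fen1 (-0.019), Cenpf (-0.27) and Sox4 (-0.11), since other probe sets of these genes were lower. With each of 21483 probe sets tested on its own, 1101 genes had a probe set called lower, 594 had 1 called higher and 3 had both. Genes near background limit the comparison: 4954 were not tested.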

Other observations

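Part of a group of fat-making enzymes was lower at 6 d than at 4 d. Of 17 lipogenesis genes tested 9 fell (52.9%, beside 7.3% of all genes tested) and 0 rose, with a median of -0.61. The group was put together after its values were seen, so its count describes these genes and is no support for a wider change. Fasn, fatty acid synthase, had 8.91, 9.82, 9.07, 8.47 and 8.31 at 6 d, against 11.51, 10.40, 10.38, 10.40 and 10.38 at 4 d (-1.70 ± 0.26, adjusted p = 7.48e-06 by limma), and the groups did not overlap. Acly, which supplies acetyl-CoA (-1.71 ± 0.25, probe set mean -0.94), Acaca, the carboxylase of the pathway (-1.15 ± 0.19, probe set mean -0.66), and Elovl6, an elongase (-1.32 ± 0.27), fell as well. Fasn was at 0.96 from 2 d to 4 d and at 1.19 from 6 d to 8 d, of which the earlier was called and the later was not (adjusted p = 0.0962), and the step to 6 d differed from both neighbouring steps (-2.66 and -2.89, adjusted p = 6.8e-05 and 9.42e-05). Array 1 at 4 d was high for Fasn and Elovl6.

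Glutathione S-transferases, which conjugate reactive compounds, gave 8 falls and 0 rises among 19 genes tested (42.1% lower, beside 7.3% of all genes tested; median -0.52). They were also grouped after the values were seen, so the same limit holds. Beside Gstm3 and Gstm1 the falls included Gstm2 (-1.24 ± 0.17) and Gstt3 (-1.21 ± 0.25). Gstm2 was higher at 4 d than at 2 d by 1.20, and the difference between the steps was -2.44 (adjusted p = 4.52e-07). Probe sets of this family can match several of its members.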
